A study of Mus musculus with 3 samples.

Results

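The MCM genes described here are Mcm2, Mcm3, Mcm4, Mcm5, Mcm6, Mcm7 and Mcm10. They were chosen by name, not by a threshold on measured values, although with earlier results of these data known. All 7 were found among the 19744 genes of the count tables. The proteins encoded by Mcm2 to Mcm7 assemble into the ring that is loaded onto replication origins before S phase and becomes the core of the helicase that unwinds DNA at the fork. Mcm10 encodes a separate protein that helps to activate the loaded helicase. In the postnatal cerebellum, granule neuron progenitors driven by Hedgehog signalling use this machinery while they divide and lower it as they leave the cycle and become neurons.

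The counts came from medulloblastomas of 3 G-Smo mice on a C57BL/6 background. In G-Smo mice (hGFAP-Cre/SmoM2), Cre driven by the hGFAP promoter turns on SmoM2, a constitutively active Smoothened that transmits the Hedgehog signal, and this Cre also acts in cells other than granule neuron progenitors. Every mouse had received 5 daily intraperitoneal injections of palbociclib at 25 mg/kg as the nanoparticle formulation POx-palbo, beginning on postnatal day 10, and tumours were taken on day 16. Palbociclib inhibits CDK4 and CDK6, the kinases that phosphorylate Rb and thereby free E2F transcription factors, regulators of many replication genes. The untreated tumours named in the study's design are not analysed here, so all 3 tumours form a single treated group and every comparison lies within tumours.

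Dissociated cells were captured by Drop-seq, which counts the 3′ ends of mRNA molecules by unique molecular identifiers under a barcode for each droplet. Tumours 1, 2 and 3 had 8827, 2330 and 9802 barcodes and 1150463, 248617 and 1324350 counts. Most barcodes were shallow, with a median of 84, 85 and 105 counts. Barcodes of 200 or more counts numbered 1060, 148 and 1059, so tumour 2 supplied few of the 2267. Tumours shared 3 to 8 barcode sequences in pairs. Median mitochondrial shares in the deep barcodes were 4.52%, 8.71% and 5.27%, highest in tumour 2. Granule lineage markers were present in every tumour: Zic1 had 10.3, 11.6 and 9.79 counts per 10000, and Atoh1, a progenitor transcription factor, had 1.45, 1.89 and 1.66.

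Promoter windows of the members are shown because E2F factors lie downstream of the inhibited kinases. RefSeq promoter windows (build GRCm38.p6, 250 bases before to 50 after a transcript start) were matched for 6 of the 7 members, giving 7 windows, since Mcm7 has a pair of start sites. The windows were searched on both strands for the E2F words TTTCCCGC, TTTGGCGC, TTTCGCGC and TTTGCCGC, and for CCAAT, the box bound by NF-Y. The windows of Mcm3, Mcm6 and Mcm7 follow on the gene's strand, all on the minus strand of the genome, with E2F words of either strand in capitals. That of Mcm2 holds none.
Mcm3, chr1:20820263-20820562: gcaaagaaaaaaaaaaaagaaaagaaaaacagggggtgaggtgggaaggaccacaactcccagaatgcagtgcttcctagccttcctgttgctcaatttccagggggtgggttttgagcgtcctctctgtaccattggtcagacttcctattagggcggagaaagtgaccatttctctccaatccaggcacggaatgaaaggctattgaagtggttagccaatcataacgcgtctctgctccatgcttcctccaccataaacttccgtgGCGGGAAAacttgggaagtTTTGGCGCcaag
Mcm6, chr1:128359656-128359955: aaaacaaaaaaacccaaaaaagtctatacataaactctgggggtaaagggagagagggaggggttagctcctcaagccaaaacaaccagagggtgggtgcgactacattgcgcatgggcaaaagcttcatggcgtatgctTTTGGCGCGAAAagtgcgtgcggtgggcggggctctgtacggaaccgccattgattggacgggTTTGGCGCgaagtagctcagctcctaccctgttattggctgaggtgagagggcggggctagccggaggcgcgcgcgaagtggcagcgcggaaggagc
Mcm7, chr5:138171834-138172133: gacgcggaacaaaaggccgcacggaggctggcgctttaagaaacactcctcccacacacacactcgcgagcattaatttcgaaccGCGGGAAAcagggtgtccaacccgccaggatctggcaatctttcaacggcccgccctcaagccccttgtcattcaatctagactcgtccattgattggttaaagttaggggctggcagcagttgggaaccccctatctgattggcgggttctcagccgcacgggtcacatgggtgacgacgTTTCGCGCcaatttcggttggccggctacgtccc
Mcm2, chr6:88898731-88899030: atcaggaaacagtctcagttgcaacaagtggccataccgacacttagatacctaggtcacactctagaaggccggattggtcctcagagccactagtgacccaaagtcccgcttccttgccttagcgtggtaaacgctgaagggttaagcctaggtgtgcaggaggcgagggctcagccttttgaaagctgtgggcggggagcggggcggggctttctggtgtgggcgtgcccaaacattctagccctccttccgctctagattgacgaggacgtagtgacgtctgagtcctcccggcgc

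Counting the start site as base 1, the words of Mcm3 began at bases 20 and 39. In Mcm6, words began at bases -110, -106 and -47, and the first pair overlap within a single run of capitals. The upstream Mcm7 window had words at bases -165 and 17. Mcm5 also held an overlapping pair, at bases -153 and -149. The other 3 windows, of Mcm2, Mcm10 and the second Mcm7 start, held no E2F word, which says only that these letters are not in them. At least 1 word was found in 4 of the 7 windows, against 2.26% of all 32851 windows in the table, and CCAAT in 7 of 7, against 37.41%. A match describes the sequence and does not show that a factor was bound.

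All 7 members were detected in the tumour totals, at low levels. 3′-end counts do not scale with transcript length, although capture can differ between genes. Mcm7 was the highest, with 3.02, 3.02 and 2.25 counts per 10000 in tumours 1, 2 and 3, or 347, 75 and 298 counts. Mcm6 had 2.29, 0.88 and 1.96 per 10000, and was lowest in tumour 2. Its counting intervals of 2.03 to 2.59 in tumour 1 and 0.55 to 1.34 in tumour 2 did not overlap (exact Poisson, 95%).

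Mcm3 had 1.81, 1.21 and 1.57 per 10000, Mcm2 0.90, 1.01 and 0.76, Mcm4 0.90, 0.36 and 0.76, and Mcm5 0.94, 0.36 and 0.63. The helicase activator Mcm10 was the lowest, with 0.26, 0.20 and 0.26 per 10000, from 30, 5 and 35 counts. In descending order the means were 2.76 ± 0.442 for Mcm7, 1.71 ± 0.736 for Mcm6, 1.53 ± 0.303 for Mcm3, 0.888 ± 0.122 for Mcm2, 0.674 ± 0.280 for Mcm4, 0.645 ± 0.289 for Mcm5 and 0.242 ± 0.0355 for Mcm10 (SD, n = 3). Within tumours, Mcm6 was above Mcm3 in tumours 1 and 3 and below it in tumour 2, and the order of Mcm2, Mcm4 and Mcm5 changed between tumours. Mcm7 was the highest in every tumour, so the ring genes were not counted in equal amounts. Differences between genes were not tested. The 7 genes together had 10.1, 7.04 and 8.19 counts per 10000. Mki67, a marker of cycling cells, had 7.28, 5.83 and 8.09, and Neurod1, a transcription factor of differentiating granule neurons, had 17.2, 23.4 and 23.2.

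Free RNA in droplets also yields counts, so deep barcodes (200 or more counts) were set beside shallow ones (50 to 99 counts). The summed MCM level was 11.3, 6.69 and 9.89 per 10000 in the deep barcodes of tumours 1, 2 and 3, against 8.70, 5.76 and 7.52 in the shallow ones, a mean of 9.31 ± 2.38 against 7.33 ± 1.48 (SD, n = 3). It was higher in the deep barcodes of every tumour, although the ranges over tumours overlapped. Mcm7 had 3.52, 3.89 and 2.71 per 10000 in deep barcodes and 2.50, 2.63 and 2.13 in shallow ones. Mcm6 had nearly the same level in both, 2.34, 0.86 and 2.16 in deep barcodes and 2.14, 1.10 and 2.13 in shallow ones. In tumour 2, Mcm4 and Mcm10 had 0 counts among the 46315 of the deep barcodes.

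**Figure D1:**
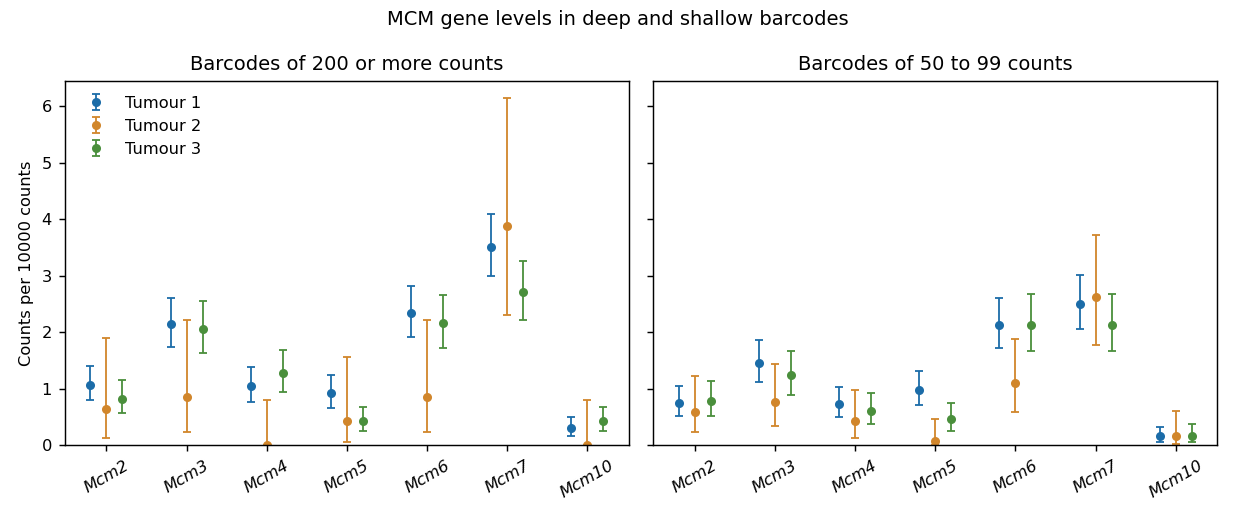
Level of each MCM gene in counts per 10000 counts (y axis), in barcodes of 200 or more counts (left) and of 50 to 99 counts (right), for each tumour. Points are tumours and bars are exact 95% Poisson intervals: Mcm7 was highest on the left in every tumour, and the intervals of tumour 2 are the widest in the left panel, where it had 31 MCM counts.

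The test between deep and shallow barcodes called 0 of 7 members, while it called 991 of 9577 genes (10.3%; edgeR quasi-likelihood test with Benjamini-Hochberg adjustment, tumour as a block). No member had an unadjusted p under 0.05 and DESeq2 called 0 as well. Fitted log2 changes ran from 0.00 for Mcm5 to 0.89 for Mcm10, with a median of 0.41 against 0.01 over all genes tested. Mki67 did pass, with 11.6, 11.4 and 12.9 counts per 10000 in deep barcodes against 3.86, 3.73 and 5.42 in shallow ones (log2 change 1.41, SE 0.25, edgeR adjusted p = 5.33e-06).

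To compare barcodes at equal depth, each deep barcode was thinned at random to 200 counts. At least 1 MCM count was then found in 184 of 1060, 16 of 148 and 152 of 1059 barcodes of tumours 1, 2 and 3, or 17.4%, 10.8% and 14.4% (mean 14.2 ± 3.28%, SD, n = 3). Without thinning, 602 of the 2267 barcodes (26.6%) had one. Among the thinned barcodes Mcm7 was found in 107, Mcm6 in 86, Mcm3 in 76, Mcm4 in 46, Mcm2 in 35, Mcm5 in 28 and Mcm10 in 11. Barcodes with at least 3 counts of at least 2 markers of another cell type, mostly astrocyte and myeloid, were set beside the rest. Of these, 3 of 75, 1 of 9 and 2 of 39 had an MCM count, 6 of 123 in all (4.88%), so the value of tumour 2 rests on 1 barcode. Pooled over tumours, the share was 346 of 2144 (16.1%) in the barcodes not called another type. Mki67 was found in 12 of 75, 1 of 9 and 5 of 39 of those called another type, 18 of 123 in all (14.6%). In the others it was found in 130 of 985, 18 of 139 and 163 of 1020, or 311 of 2144 (14.5%). Whether the called barcodes held tumour cells, other cells or mixtures was not tested. Top2a was found in 12 of 123 (9.76%) and 364 of 2144 (17.0%). Median depths before thinning were 686, 465 and 512 counts in the called barcodes and 341, 250 and 299 in the others.

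Detection of any member was then compared between barcodes with and without Mki67 or Top2a, which encodes the topoisomerase of S phase and mitosis. The share with an MCM count was 57 of 252 (22.6%), 7 of 44 (15.9%) and 53 of 286 (18.5%) in barcodes with Mki67 or Top2a. It was 127 of 808 (15.7%), 9 of 104 (8.65%) and 99 of 773 (12.8%) in barcodes without them. The share with the markers was higher in 3 of 3 tumours, a mean of 19.0 ± 3.38% against 12.4 ± 3.55% (SD, n = 3), although the lowest value with the markers was only just above the highest without. Of the 352 barcodes with an MCM count, 235 had neither marker, but most barcodes had neither: 1685 lacked both and 582 had at least 1. Lack of a marker among 200 counts does not show lack of its mRNA. In tumour 1, Mki67 was found in 142 of 1060 thinned barcodes and in 217 with all counts. By gene, Mcm7 was found in 45 of 582 barcodes with the markers (7.73%) and 62 of 1685 without (3.68%), and was higher in 3 of 3 tumours. The shares of the other members lay closer together. The closest included Mcm6, in 4.12% with the markers and 3.68% without, Mcm4 in 2.06% and 2.02%, and Mcm10 in 0.515% and 0.475%. Mcm2 was found in 2.38%, 4.55% and 1.40% of barcodes of tumours 1, 2 and 3 with the markers. Without them it was found in 1.49%, 0.96% and 1.29%. Mcm5 was found in 2.38%, 0% and 1.40% with the markers against 1.86%, 0.96% and 0.26% without. In tumour 2 these shares rest on at most 2 barcodes. For Top2a alone the shares were 23.6%, 15.6% and 20.1% with it and 16.2%, 9.48% and 13.2% without it. For Mki67 alone they were 19.7%, 10.5% and 17.3% with it and 17.0%, 10.9% and 13.8% without it, so tumour 2 showed no excess. Whether the markers differ in this was not tested.

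The share was lower where Neurod1 was found. It was 16 of 228 (7.02%), 3 of 41 (7.32%) and 28 of 298 (9.40%) in barcodes with Neurod1. In barcodes without it, 168 of 832 (20.2%), 13 of 107 (12.2%) and 124 of 761 (16.3%) had an MCM count. The means were 7.91 ± 1.30% with Neurod1 and 16.2 ± 4.02% without it (SD, n = 3), and the tumours' values did not overlap.

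Splitting barcodes by both criteria gave 4 classes. Barcodes with Mki67 or Top2a and no Neurod1 had shares of 24.1%, 16.7% and 19.4%, and those with both kinds of marker had 15.0%, 12.5% and 14.3%, of only 40, 8 and 49 barcodes. Barcodes with none of the 3 genes had 18.9%, 9.86% and 14.9%, and their order against those with both kinds of marker differed between tumours. Barcodes with Neurod1 and neither proliferation gene had the lowest, 5.32%, 6.06% and 8.43%, or 33 of 470 in all (7.02%). Few barcodes called another cell type had an MCM count either: 3 of 75, 1 of 9 and 2 of 39. Barcodes with none of the 3 genes held 202 of the 352 barcodes with an MCM count, since they were the most numerous class, at 1215 of 2267.

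**Figure D2:**
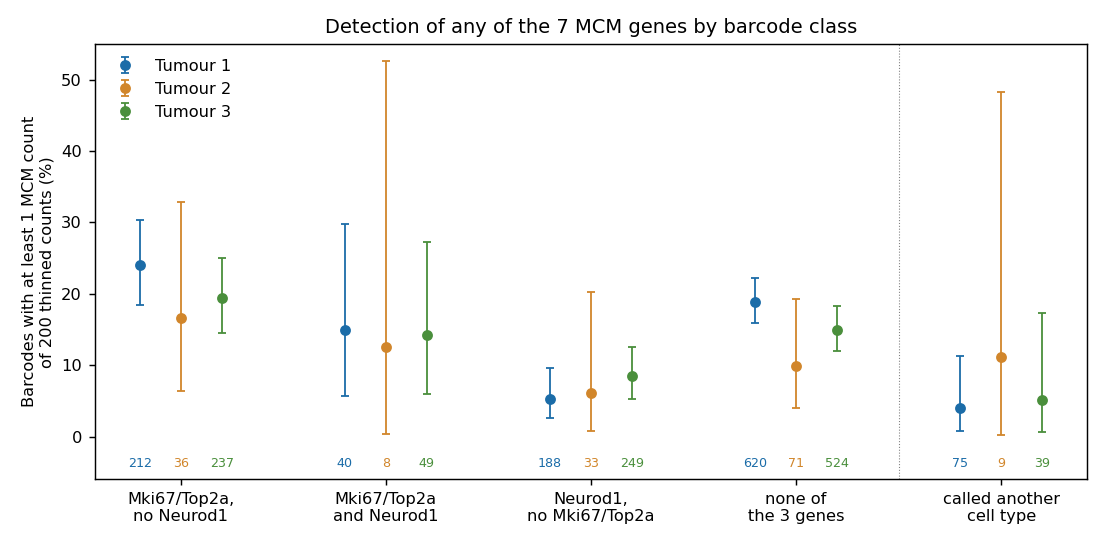
Share of barcodes with at least 1 count of any MCM gene among 200 thinned counts (y axis, %), by marker class (x axis) and tumour. Points are tumours, bars exact 95% binomial intervals, and the numbers beneath are barcodes. The share runs between 16.7% and 24.1% in barcodes with Mki67 or Top2a and no Neurod1, and between 5.32% and 8.43% in barcodes with Neurod1 and neither proliferation gene.

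Gene by gene, raw counts were summed per tumour over barcodes with and without Mki67 or Top2a and tested over all 7309 genes with at least 20 counts. Mcm7 was the member that passed: it had 64, 11 and 48 counts with the markers and 100, 7 and 60 without them. Per 10000 counts these were 5.25, 8.27 and 4.10 with the markers against 2.90, 2.12 and 2.13 without, so the groups did not overlap. The log2 change was 1.03 (SE 0.26, edgeR quasi-likelihood adjusted p = 0.011, Benjamini-Hochberg), higher in 3 of 3 tumours. That is 1 of 7 members called higher, against 1.01% of all genes tested.

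The other 6 did not pass. Mcm2, with 17, 2 and 14 counts against 33, 1 and 19, had a fitted log2 change of 0.80 (SE 0.46), and Mcm6, with 30, 2 and 29 against 79, 2 and 57, had 0.29 (SE 0.32). Mcm3 had 0.27 (SE 0.33), Mcm4 0.43 (SE 0.44), Mcm5 0.64 (SE 0.56) and Mcm10 0.57 (SE 0.78). All 7 fitted values were above 0, as were 48.4% of those of all genes, with a median of 0.57 against -0.02 over all genes. Marker counts of other cell types moved too: the fitted values of 10 of 11 myeloid and 9 of 10 astrocyte markers were below 0, with medians of -0.81 and -0.56 and none passing. Of 3 endothelial and mural markers 2 were called lower, Flt1 and Cldn5, and of 4 oligodendrocyte lineage markers 1 was. The part of these cell types in the result was not tested. Myeloid markers summed to 7.67, 7.84 and 7.70 counts per 10000 of all counts in tumours 1, 2 and 3, and astrocyte markers to 16, 8.29 and 10.9. With barcodes called other cell types left out, Mcm7 had a log2 change of 0.96 and still passed. The call of Mcm7 was lost without tumour 1 (log2 change 1.16), without tumour 3 (1.05) and when sets were made within barcodes lacking Neurod1 (0.70).

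Lists of other cycle genes were set beside the members in the same test. Of 40 genes of mitosis, 31 rose, with a median log2 change of 1.85. Among them the cyclin Ccnb1 had a log2 change of 2.01 (edgeR adjusted p = 0.00019), and Cenpf, a kinetochore protein, 1.77 (edgeR adjusted p = 1.47e-14). Of 29 genes of the replication fork 3 rose: the checkpoint mediator Clspn (1.32, SE 0.33), the catalytic subunit of DNA polymerase alpha, Pola1 (1.40, SE 0.38) and the ligase Lig1 (0.92, SE 0.25). Of 15 genes of nucleotide supply and S phase, thymidine kinase Tk1 (2.28, SE 0.59) and the ribonucleotide reductase subunit Rrm2 (1.21, SE 0.34) rose. Of 18 tested genes of origin licensing and helicase activation 0 passed, by edgeR or by DESeq2, with a median of 0.35, while 4 had an unadjusted p under 0.05. The numbers of calls rest on tumours 1 and 3: of the mitosis genes 1 passed without tumour 1, 36 without tumour 2 and 5 without tumour 3, and no fork or S-phase gene passed without tumour 1 or without tumour 3. The list medians were 1.43 or more for mitosis, 0.20 or more for the fork and 0.56 or more for S phase in each of these fits. Neurod1 was lower, with 7.87, 11.3 and 11.4 counts per 10000 with the markers against 15.9, 17.9 and 24.1 without (log2 change -0.995, SE 0.20, edgeR adjusted p = 9.29e-05).

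Between barcodes with and without Neurod1, every member had a fitted log2 change below 0, as did 54.9% of all genes, and Mcm3 was the member that passed. Mcm3 had 5, 1 and 6 counts with Neurod1 and 95, 3 and 76 without it. Per 10000 counts these were 0.55, 0.87 and 0.61 with Neurod1 against 2.53, 0.86 and 2.53 without, so tumours 1 and 3 were lower with Neurod1 and tumour 2, with 4 counts in all, was level. The log2 change was -1.997 (SE 0.47, edgeR quasi-likelihood adjusted p = 0.0099, Benjamini-Hochberg), and 1 of 7 members called lower compares with 0.233% of all 7310 genes tested.

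Mcm6 had 10, 0 and 12 counts with Neurod1 and 99, 4 and 74 without (log2 change -1.18, SE 0.40), lower in 3 of 3 tumours without passing. Mcm2 had 3, 0 and 5 counts against 47, 3 and 28 (-1.44, SE 0.62), also lower in 3 of 3. Mcm7 had 22, 7 and 9 against 142, 11 and 99 (-0.89, SE 0.32), and in tumour 2 it was higher with Neurod1, 6.07 against 3.16 per 10000. Mcm10 had 1 count with Neurod1 and 30 without over the 3 tumours, a ratio of levels of 0.12 (exact interval 0.003 to 0.712, counting error only). Mcm4 had -0.94 (SE 0.55) and Mcm5 -0.13 (SE 0.62). At an unadjusted p under 0.05, 5 of 7 members were lower, against 4.17% of all genes, and the median was -1.18, against -0.08 over all genes. Without tumour 1 or without tumour 3 the call of Mcm3 was lost, at -1.77 and -1.87, as it was with another random thinning of the barcodes (-1.69).

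**Figure D3:**
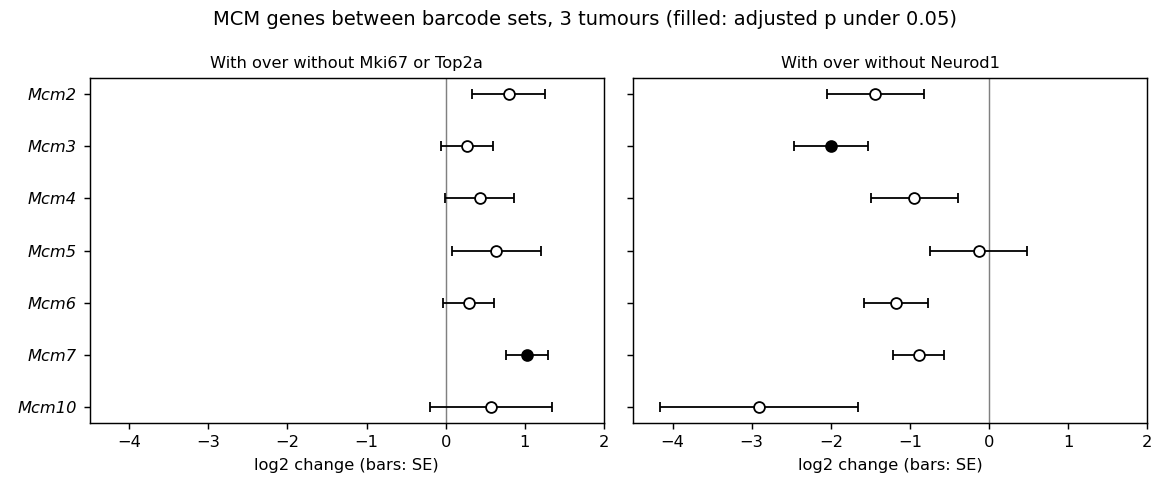
Fitted log2 change of each MCM gene (x axis) between barcodes with and without Mki67 or Top2a (left) and with and without Neurod1 (right), with bars of 1 SE from edgeR. All 7 points lie above 0 on the left, where Mcm7 passed the test, and below 0 on the right, where Mcm3 passed.

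Other genes of DNA replication had medians below 0 in the same comparison, and few passed. Of 29 fork genes 1 fell, Lig1 (log2 change -1.15, SE 0.32, edgeR adjusted p = 0.0498), with a median of -0.48. Of 15 S-phase genes and of 18 licensing genes 0 passed by edgeR, with medians of -0.66 and -0.29, and 3 and 3 had an unadjusted p under 0.05. DESeq2 called 0 genes in the whole table here. Of 40 mitosis genes Smc2, a condensin subunit, fell (-0.88, SE 0.22), and both Mki67 (-0.93, SE 0.21) and Top2a (-0.86, SE 0.21) fell. Of 25 granule neuron genes 10 rose, with a median of 0.93, including Cntn2, an adhesion molecule of young granule neurons (1.48, SE 0.24). Of these neuronal genes 0 passed without tumour 1, 17 without tumour 2 and 0 without tumour 3, with medians of 0.70, 1.07 and 0.83, and Lig1, Smc2, Mki67 and Top2a did not pass without tumour 1 or without tumour 3. Markers of other cell types also had medians below 0: myeloid -1.11 (0 of 11 passing), astrocyte -0.66 (1 of 10 lower, Sparcl1) and endothelial and mural -2.97 (1 of 3 lower, Cldn5). With barcodes called other cell types left out, Mcm3 was still below 0 and still passed. The part of these cell types in the result was not tested further.

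Seen from the other side, barcodes with an MCM count were compared with barcodes without one, leaving the 7 members out of the test because they define the sets. The sets held 184, 16 and 152 barcodes with an MCM count against 876, 132 and 907 without. Mki67 was found in 15.2%, 12.5% and 19.1% of barcodes with an MCM count and in 13.0%, 12.9% and 15.3% of those without, Top2a in 21.2%, 31.3% and 23.7% against 14.4%, 20.5% and 15.8%. Pcna, the sliding clamp of the replication fork, was found in 5.98%, 6.25% and 6.58% with an MCM count against 2.28%, 1.52% and 3.86% without, or 11, 1 and 10 barcodes against 20, 2 and 35. The value of tumour 2 thus rests on 1 barcode. Neurod1 was found in 8.70%, 18.8% and 18.4% with an MCM count against 24.2%, 28.8% and 29.8% without.

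Over 7304 genes, 1 passed (0.0137%) and 0 were called higher (0.0%) by edgeR quasi-likelihood with Benjamini-Hochberg adjustment, while 305 (4.18%) had an unadjusted p under 0.05 and DESeq2 called 2. The gene that passed was Apoe, a lipoprotein made chiefly by glia, with 93 counts in barcodes with an MCM count and 1870 in those without (log2 change -1.90, SE 0.35, edgeR adjusted p = 0.00036), lower in 2 of 3 tumours. Barcodes called other cell types were 3, 1 and 2 of those with an MCM count and 72, 8 and 37 of those without. With these barcodes left out, the log2 change of Apoe was -0.22 and did not pass, and that of Neurod1 was -1.54 (edgeR adjusted p = 0.011) and did. With all barcodes Neurod1 had 45, 7 and 52 counts with an MCM count and 599, 67 and 760 without (-1.44, SE 0.34, edgeR adjusted p = 0.066), lower in 3 of 3 tumours.

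The number of calls changed most when tumour 2, with 16 MCM barcodes holding 5161 counts, was left out. Then 30 genes passed, 10 higher (0.14% of 7123) and 20 lower (0.281%). By list, 4 of 29 fork genes, 2 of 15 S-phase genes and 1 of 40 mitosis genes were among the 10. Pcna had 27 and 27 counts with an MCM count in tumours 1 and 3, against 44 and 66 without (log2 change 1.35, SE 0.30, edgeR adjusted p = 0.0037). Lig1, which joins Okazaki fragments, had 54 and 44 against 121 and 96 (1.20, SE 0.21). Clspn (1.27), the maintenance methyltransferase Dnmt1 (1.08), the chromatin remodeller Hells (0.98) and the histone chaperone Nasp (0.87) were higher as well. The cohesin subunit Smc1a (0.53), Top2a (0.52), Smc2 (0.47) and Trim27 (1.77) completed the 10, with edgeR adjusted p from 2.1e-06 to 0.042.

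The 20 lower without tumour 2 included 3 of 25 granule neuron genes and 1 of 11 myeloid markers. The granule neuron genes were Cntn2 (log2 change -1.42), Rtn1 (-0.66) and Map1b, a neuronal microtubule protein (-0.52). Neurod1, which is not in that list, had a log2 change of -1.44. The myeloid marker was Ctss (-2.54), and Lyz2 (-2.81) and Apoe (-2.05) were lower as well. With 2 tumours the spread rests on a single residual degree of freedom per gene, moderated over all genes. The SE and adjusted p of this fit are thus no measure of the spread between tumours. Apoe had 54 counts with an MCM count against 682 without in tumour 1, and 28 against 1101 in tumour 3. The fall was larger in tumour 3, yet the SE was 0.134. Without tumour 1, 0 genes passed and 36 had an unadjusted p under 0.05, and without tumour 3 these counts were 0 and 69.

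By list, with all 3 tumours, 15 of 15 S-phase genes had fitted values above 0, with a median of 0.83, and 26 of 29 fork genes did, with a median of 0.64, against 41.6% and -0.12 over all genes. None of these passed on its own by edgeR or by DESeq2, and 5 and 9 of them had an unadjusted p under 0.05. The lists were chosen with earlier results of these data known, so such tallies are a description. In counts simulated with a single assumed spread for all genes, this edgeR fit called only 1.03% of genes with a true log2 change of 1. Pcna stood at 1.36 (SE 0.39), Dnmt1 at 1.05 (SE 0.35), Clspn at 1.20 (SE 0.39) and Lig1 at 1.04 (SE 0.33). Of 18 licensing genes 10 were above 0, with a median of 0.02: the loader Cdc6, with 24 counts with an MCM count and 43 without, stood at 1.44 (SE 0.55), Cdc45 at 0.99 (SE 0.68) and the MCM loading factor Cdt1 at 0.78 (SE 0.62), while Dbf4, the activator of the Cdc7 kinase, stood at -1.25 (SE 0.76) and Orc4 at -1.05 (SE 0.73). The 40 mitosis genes were centred near 0, with a median of -0.05 and 18 above 0, and Mki67 stood at -0.11 (SE 0.31). All 25 granule neuron genes were below 0, with a median of -0.73, and so were 10 of 11 myeloid markers, with a median of -1.17. The 20 genes of Hedgehog-driven progenitors had a median of 0.17.

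**Figure D4:**
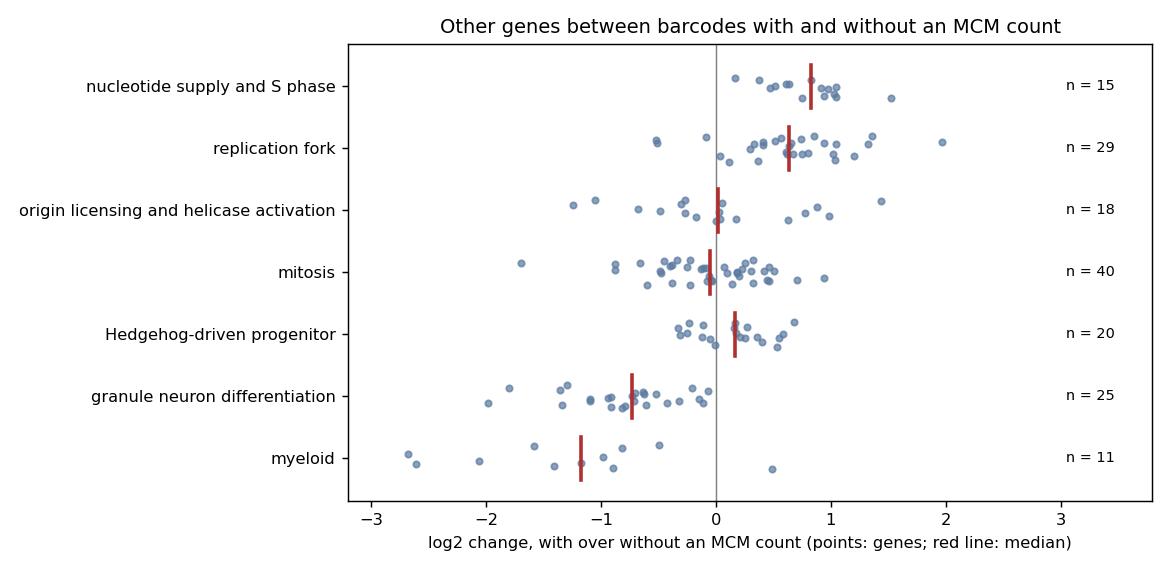
Fitted log2 change of other genes between barcodes with and without an MCM count (x axis), by gene list (y axis). Points are genes, offset at random up and down, and red lines are list medians: 0.83 for S-phase genes, 0.64 for fork genes, -0.05 for mitosis genes and -0.73 for granule neuron genes. 0 of the genes plotted passed the test on its own.

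Genes whose detection was most like that of the members were ranked by the phi coefficient between detection of a gene and of any member, at 200 thinned counts, using the lower value of tumours 1 and 3. Of 969 genes ranked, the highest were Nasp (0.09), Dnmt1 (0.08), Top2a (0.07), Rps18 (0.07), Smc2 (0.07), Hnrnpa2b1 (0.07), Esco2 (0.06) and Mllt10 (0.06). In tumour 2, which the ranking did not use, 4 of these 8 were below 0: Nasp (-0.125), Rps18 (-0.057), Hnrnpa2b1 (-0.021) and Mllt10 (-0.058). All are weak, come from barcodes of the same libraries and are given only as a description. Mki67 ranked 79 (0.03), and Neurod1 ranked 969, the last, at -0.14. That value is of tumour 1, and Neurod1 had -0.07 in tumour 2 and -0.088 in tumour 3. In tumour 3 Cacna2d1 was lower, at -0.104.

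Members were also found with each other. Using all counts, 2 or more members were found in 88, 2 and 52 barcodes of tumours 1, 2 and 3, which is 27.2%, 11.8% and 19.9% of the barcodes with any member, and up to 6 members were found in a single barcode. The most frequent pairs were Mcm6 with Mcm7 in 30 barcodes, Mcm3 with Mcm6 in 29 and Mcm3 with Mcm7 in 26. Over the 21 pairs there were 234 joint detections, against 113.8 from the product of the members' shares within tumours, and uneven depth adds to such an excess. At 200 thinned counts 12 of 21 pairs lay above the product, and 15 had any joint barcode. Where the product is below 1, such as 0.16 for Mcm2 with Mcm10, a single joint barcode puts the pair above it. In all there were 39 joint detections against 27.4. By tumour the ratios were 1.68, 2.55 and 0.91, so tumour 3 showed no excess, and with 24, 2 and 9 barcodes holding 2 or more members the members could be compared with each other only at this limited depth.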

How the data were processed

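The deposited tables hold whole-number UMI counts per gene and barcode, with no normalisation recorded. The submitters' processing notes list Cell Ranger and STAR, without versions or roles, and the build GRCh38, although the gene symbols are those of mouse. No gene coordinates were taken from the tables. Promoter windows are RefSeq's, on GRCm38.p6. Every deposited barcode holds at least 50 genes, so barcodes were filtered before deposit.

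Barcodes of at least 200 counts were thinned to 200 with a fixed seed, and sets were made by detection in the thinned counts. Raw counts were then summed per tumour and set and tested with edgeR 4.0.16 (R 4.3.3; TMM, quasi-likelihood, tumour as a block since both sums come from the same tumour, genes with at least 20 counts, Benjamini-Hochberg threshold 0.05). Genes that define a set were left out before adjustment; they were adjusted together at first, and that version is an added alternative. DESeq2 1.42.0 and other settings were alternatives. The fits were tested on simulated counts first. These were drawn with a single assumed spread for all genes, not estimated from the tumours, so the shares called hold for that spread. True log2 changes of 1, in either direction, were called for 11.6% (Mki67 or Top2a), 6.19% (Neurod1), 1.03% (MCM count) and 20.4% (depth) of changed genes. For true log2 changes of 2 these shares were 61.6%, 50.5%, 48% and 84.9%. A gene that did not pass may therefore still have changed.

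Shares carry exact Clopper-Pearson and levels exact Poisson intervals at the 95% level, for counting error only, and are descriptions over 3 tumours without a test. Doublets were not removed from the barcodes except in the quality-filtered alternative (at least 100 genes, at most 10% mitochondrial counts, Scrublet at an expected 6%), which kept 941, 76 and 916 barcodes. Scrublet called 22, 17 and 9. No tumour was a duplicate of another: chi-square values per degree of freedom between pairs ran from 5.35 to 8.06.

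Named genes are all members, the licensing genes and the list genes with the smallest p, genes that passed, and the 8 with the highest phi. Ccnb1 and Cenpf were named as examples after their values were seen. The members and lists were chosen with earlier results of these data known. A set by detection is a range of counts, not a cell type.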

Additional observations from a re-analysis of the deposited data

How the results depend on the processing

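With 3 tumours and 31 MCM counts in the deep barcodes of tumour 2, calls of members were sensitive to the settings, while most directions were not. Between barcodes with and without Mki67 or Top2a, 1 member was called, and 0 were with DESeq2, with no filter on low counts, with no replicate block, with minimums of 100 or 500 counts, with Mki67 alone, with Top2a alone, or within barcodes lacking Neurod1. Leaving out a tumour gave 0 to 1. Mcm7 was above 0 in 17 of 17 settings (0.50 to 1.30) and called in 7. Between barcodes with and without Neurod1, 1 member was called, against 3 when barcodes were not thinned. With DESeq2, no replicate block, minimums of 100 or 500 counts or another random seed, 0 were called. With edgeR's filterByExpr 0 were called too, but Mcm3 was not among the genes tested there. Leaving out a tumour gave 0 to 2. The share of all genes called is not given for the unthinned sets or for the fits without a tumour. These numbers of members thus have no background beside them. Mcm3 was below 0 in 14 of 14 settings (-2.29 to -0.78) and called in 7.

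Between barcodes with and without an MCM count, 1 gene was called, against 2 with RLE size factors, 2 with DESeq2, 19 with filterByExpr (fewer genes tested), 3 with no filter, 0 with no replicate block, 0 at a minimum of 100 counts, 10 at 500 and 4 with the members kept in the adjustment, which was chosen after seeing the data. Leaving out a tumour gave 0 to 30. Between deep and shallow barcodes, 0 members were called in every setting run.

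Directions that turned belong to values that did not pass. With over without Mki67 or Top2a, Mcm3 was at -0.292 to 0.547 when a tumour was left out, negative without tumour 3, -0.164 and -0.184 at minimums of 100 and 500 counts, -0.059 with another seed and -0.232 with Mki67 alone, Mcm2 at -0.125 at 100 counts, and Mcm5 at -0.318 at 100 counts and -0.057 with another seed. With over without Neurod1, Mcm5 was at 0.167 with DESeq2, -0.423 to 0.462 when a tumour was left out, positive without tumour 3, and 0.007 and 0.734 at 100 and 500 counts. In deep over shallow barcodes, Mcm5 was at -0.025 with RLE size factors, -0.068 with no filter and -0.097 to 0.19 when a tumour was left out, negative without tumour 2. Mcm6 was there at -0.015 with RLE, -0.052 with DESeq2, -0.063 with no filter, -0.113 to 0.066 when a tumour was left out, negative without tumours 1 and 3, -0.084 with the quality filter and -0.149 at 500 counts. The cause of these changes was not tested.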
